A study of Homo sapiens with 30 samples.

Results

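Kinesins are motor proteins that use ATP to move along microtubules, and most of their genes carry KIF or KIFC symbols. Here the RNA levels of the genes with these symbols were followed while human embryonic stem cells became cardiomyocytes. Kinesins with other symbols, such as CENPE, are not among the members. All genes whose symbol is KIF or KIFC followed by a number and, where present, a letter A, B or C were taken, which gave 42 of the 41491 genes in the time-course table. They were grouped by role into 14 mitotic kinesins, 13 transport kinesins and 15 others. The gene used as the marker of the set, KIF11, was listed above 6 FPKM at every time point.

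Some kinesins build and shorten the mitotic spindle, move chromosomes or complete the separation of daughter cells, and their RNA is made mostly late in the cell cycle. Others carry vesicles, mitochondria, endosomes or the parts of cilia towards the fast-growing ends of microtubules, and several of these are best known from neurons. In the heart, cardiomyocytes leave the cell cycle as they mature while still depending on microtubule transport.

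The cells were the H7 human embryonic stem cell line, 1 line throughout, so all groups share its genotype. Groups were undifferentiated cells (hESC), cells on days 1, 2, 3, 4, 5, 6, 8, 10 and 15 of cardiac induction (D1 to D15), and day 31 cardiomyocytes purified on Percoll (CM), with 2 libraries each. Induction used 12 µM CHIR99021, a GSK3 inhibitor that activates WNT signalling, for 24 hours and then 5 µM IWP4, an inhibitor of WNT secretion, for 2 days. Primitive mesoderm (PMESO) was sorted on D3 as ROR2+ cells and set against the D3 ROR2(-) cells, and cardiac mesoderm (CMESO) was sorted on D4 as ROR2+/PDGFRa+ cells and set against the D4 ROR2(+)/PDGFRa(-) cells, again with 2 libraries each. D15 and the earlier stages were not purified.

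Levels are in FPKM, fragments scaled to transcript length and to the total of the library, which allows levels of different genes to be compared. The time-course table holds 1 value per gene and time point, with no spread between the 2 libraries, so the time course allows no test. A gene is called higher or lower where log2(FPKM + 1) differed by at least 1, which is 2-fold, and the added 1 shrinks the change of genes with low levels. The depth in reads is unknown. Defining genes of the first and last stage followed the labels: POU5F1 went from 1026 FPKM in hESC to 1.54 in CM, and TNNT2 from 4.50 to 2785. Over all kinesins, 40 of 42 reached 1 FPKM at some time point and 31 reached 10 FPKM. KIF2B, a spindle motor, and KIF4B did not reach 1 FPKM anywhere. KIF4B is a near-identical copy of KIF4A, so how reads were divided between these 2 genes is uncertain. In bulk samples, fewer cells of a type and less RNA per cell cannot be told apart.

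Mitotic kinesins were lower in cardiomyocytes than in stem cells as a group, whereas transport kinesins changed in both directions. Of the 12 mitotic kinesins kept, 9 were lower in CM than in hESC and none was higher. The median change was -1.34 on the log2 scale. Among all 21711 genes kept, 16.9% were lower, 18.7% were higher and the median change was 0.03. Of the 13 transport kinesins, 3 were higher and 5 lower, with a median of -0.02. Of the 15 others, 2 were higher and 1 lower, with a median of 0.15.

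The promoters of the mitotic kinesins are described before their levels. Whether these sequences bear on the levels was not tested. Cell-cycle genes of the G2 and M phases are known to carry a CHR element, read here as the letters TTTGAA, and NF-Y boxes, read as CCAAT. The 100 bases before the transcription start are shown for KIF11, for the 3 other mitotic kinesins with both motifs in the 250 bases before the start, and for KIF2C, which had neither. They are RefSeq sequences of GRCh38.p14, printed on the strand of the gene, and capitals mark TTTGAA or its complement TTCAAA and CCAAT or its complement ATTGG.
KIF11, chr10:92593030-92593129, plus strand: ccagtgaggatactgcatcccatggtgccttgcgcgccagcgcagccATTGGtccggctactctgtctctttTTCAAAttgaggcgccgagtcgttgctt
KIF23, chr15:69414249-69414348, plus strand: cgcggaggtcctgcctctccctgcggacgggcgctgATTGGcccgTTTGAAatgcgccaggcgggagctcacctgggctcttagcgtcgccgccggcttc
KIF4A, chrX:70290004-70290103, plus strand: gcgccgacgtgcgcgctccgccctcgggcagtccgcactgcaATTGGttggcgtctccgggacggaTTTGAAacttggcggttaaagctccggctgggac
KIF18A, chr11:28108157-28108256, minus strand: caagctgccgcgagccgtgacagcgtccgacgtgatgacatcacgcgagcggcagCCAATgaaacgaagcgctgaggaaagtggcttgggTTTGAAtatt
KIF2C, chr1:44739737-44739836, plus strand: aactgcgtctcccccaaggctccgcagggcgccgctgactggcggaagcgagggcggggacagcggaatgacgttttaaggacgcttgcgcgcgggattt

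In KIF11 the NF-Y box began at position -53 and the CHR letters at -28 from the start, in KIF4A at -58 and -34, in KIF23 at -64 and -55, and in KIF18A at -45 and -10. Promoters were matched for 34 of the 42 kinesins, and both strands were searched. Within the 250 bases before the start, CCAAT was found in 11 of 14 mitotic, 4 of 11 transport and 3 of 9 other kinesins, against 37.0% of the 27305 genes in the RefSeq table. TTTGAA was found in 5 of 14 mitotic, 1 of 11 transport and 0 of 9 other kinesins, against 16.1% of all genes. With the 50 bases after the start included, a window added after these counts were seen, TTTGAA was found in 10 of 14 mitotic kinesins against 18.2% of all genes, while the counts of transport and other kinesins did not change. The 14 mitotic kinesins here include KIF2B and KIF4B, which did not reach 1 FPKM at any time point. KIF4B, the near-identical copy of KIF4A, has its motifs the same 24 bases apart. Both copies count among the 11 with CCAAT and the 10 with TTTGAA. The transport kinesin with both motifs was KIF5B. A match describes the letters in this window and shows no binding.

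KIF11 slides antiparallel microtubules apart and keeps the spindle bipolar. Its FPKM values, in order from hESC to CM, were 14.4, 38.3, 41.9, 19.6, 17.3, 28.7, 40.4, 33.0, 17.4, 6.70 and 10.6. The level was therefore high at D1 and D2, low at D3 and D4, high again at D6, and lowest at D15. From D2 to D15 it differed 6.25-fold on the deposited scale. KIF11 was the only mitotic kinesin called lower at D3 than at D2 (log2 change -1.06), a step at which 5.04% of all genes were lower. After the columns were rescaled to a common median ratio over genes, its change was -0.99 and the call was lost. The rescaled values of KIF11 at D2 and D15 lay closer together, at 37.7 and 8.68. Because hESC held a low value, KIF11 was not called lower in CM than in hESC (log2 change -0.41), but it was lower than at D1 (-1.76). KIF15, which supports KIF11 in spindle assembly, also had a low value in hESC: 8.21, 21.1, 24.5, 24.1, 11.7, 15.8, 16.3, 13.4, 9.03, 3.24 and 2.98 FPKM. Unlike KIF11 it stayed near its maximum at D3.

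KIF2C, which removes tubulin from microtubule ends at kinetochores, had the largest difference of the mitotic kinesins between both ends of the series. Its FPKM values from hESC to CM were 68.9, 39.1, 44.0, 34.1, 19.9, 32.7, 43.9, 36.2, 20.7, 9.78 and 8.75, so hESC stood above every later stage. The CM value was 7.88-fold below hESC. KIF20A, which brings the chromosomal passenger complex to the central spindle, came next, with 43.0, 45.9, 67.8, 50.6, 25.8, 37.9, 59.5, 51.0, 23.4, 11.0 and 12.0 FPKM. It was 3.58-fold lower in CM than in hESC, with its maximum at D2. Exons of KIF20A overlap those of BRD8 and CDC23 on the opposite strand in GENCODE 29. The strand setting of the counting is not given in the sources used here, so reads of these genes could be shared. The same limit holds for other kinesins, as 19 of the 42 have such an overlap, 17 of them on the opposite strand. These include the mitotic KIF2C, KIF4A, KIF18A, KIF22, KIF23 and KIFC1, and also KIF24. KIF2A overlaps IPO11 and KIF1B overlaps RN7SL731P on the same strand.

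KIF23, the motor of the centralspindlin complex of cytokinesis, measured 46.3, 49.0, 51.5, 44.0, 18.9, 47.0, 48.1, 44.6, 23.8, 10.0 and 17.6 FPKM. Its dip to 18.9 at D4 stood between values above 40 on both sides. KIFC1, a motor that moves towards minus ends and clusters spindle poles, measured 33.1, 28.1, 28.7, 31.8, 14.5, 29.3, 29.5, 26.4, 15.1, 7.38 and 10.7 FPKM. KIF14, which recruits citron kinase to the midbody, was low throughout: 7.68, 13.8, 14.6, 16.2, 6.49, 13.2, 15.1, 12.4, 7.26, 2.60 and 3.60 FPKM. For KIFC1 as for KIF23, D4 lay below D3 and D5.

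KIF18A, which damps the movements of aligned chromosomes, measured 16.1, 19.2, 19.6, 21.8, 11.9, 24.9, 22.9, 23.2, 13.7, 5.13 and 7.37 FPKM. Its relative KIF18B, which acts on astral microtubules, ranged only 3.06-fold, from 4.47 in CM to 13.7 at D1, the narrowest range of the 12. KIF20B, a motor of late cytokinesis, measured 18.8, 32.3, 28.3, 22.2, 15.6, 21.6, 24.5, 20.8, 14.8, 5.91 and 6.89 FPKM. Of the chromosome-bound motors, KIF22 ranged from 17.1 at D15 to 77.1 at D6, the highest level of any mitotic kinesin, and KIF4A from 4.02 at D15 to 22.0 at D2. The lowest value of the 12 genes lay at D15 in 9 and at CM in 3 on the deposited scale, and at D15 in 5 and at CM in 7 after rescaling. KIF22 and KIF4A were among those whose lowest stage moved to CM.

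**Figure D1:**
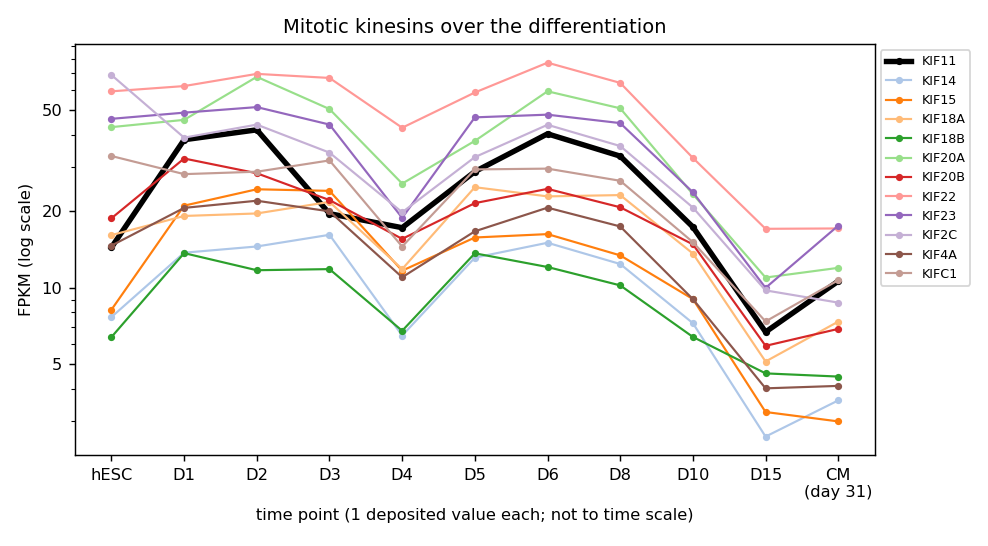
FPKM (log axis) of the 12 mitotic kinesins that reached 1 FPKM, at the 11 time points, 1 line per gene with KIF11 in black and 1 deposited value per point. All 12 lines lie lower at D4 than at D3 and D5, and all are lowest at D15 or CM.

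The dip at D4 was shared by all mitotic kinesins, but for KIF11 the step from D3 was small (log2 change -0.17). All 12 were below D3 by some amount, with a median log2 change of -0.82, and 3 were called lower (KIF23 at -1.18, KIFC1 at -1.08 and KIF14 at -1.20), against 6.3% of all genes. After rescaling KIFC1 was at -0.99 and 2 calls were left. From D4 to D5 all 12 were above, with a median of 0.70, and KIF23 (1.27) and KIF18A (1.01) were called higher, against 3.68% of all genes. D4 lay below both D3 and D5 in 12 of 12 mitotic kinesins, 5 of 13 transport kinesins and 6 of 15 others, against 27.4% of all genes. The mean of D3 and D5 was a median 1.71 times the D4 value for mitotic kinesins and 1.14 times for transport kinesins. Both counts rest on the single D4 column. Set directly against D3, D5 had none of the 12 called lower, against 6.21% of all genes.

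Partner genes of the spindle dipped as well. From a list of 24 genes for spindle, checkpoint and cytokinesis proteins, 23 lay below both neighbours at D4, against 27.4% of all genes. The list includes CENPE, a mitotic kinesin without a KIF symbol, at 42.9 FPKM at D3, 17.6 at D4 and 29.6 at D5. On this list 11 were called lower than at D3, against 6.3% of all genes. After rescaling these counts were 22 and 7, and 1133 of all 21711 genes were called lower than at D3. AURKA, a kinase of spindle poles, went from 62.5 FPKM at D3 to 21.5 at D4 and 32.3 at D5. PRC1, which binds the central spindle together with KIF4A, went from 64.4 to 33.6 and 79.7. Of 21 partners of transport motors (adaptors, light chains and dynein subunits), 3 lay below both neighbours at D4, against 27.4% of all genes.

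On the first day of treatment, KIF11 (log2 change 1.35) and KIF15 (1.26) were called higher than in hESC, against 12% of all genes. Of the 12 mitotic kinesins 10 were above hESC by some amount, with KIF2C and KIFC1 below. After rescaling, 7 of 12 were above and 5 below, so the direction of the group at this step depended on the scale. KIF24, which restrains the growth of cilia and is no spindle motor, went from 0.695 FPKM in hESC to 4.07 at D1. It was then above 2 FPKM at every later time point but D15, where it was 1.14.

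After D8 the mitotic kinesins went down in steps. At D10 all 12 lay below D8 (median log2 change -0.77), and KIF20A (-1.09) was called lower, against 1.11% of all genes. At D15 all 12 lay below D10 again (median -1.10), and 8 were called lower, against 9.51% of all genes. That last count depended on the scale of the D15 column, which had the lowest summed FPKM of the series. After rescaling, all 12 still lay below D10 (median -0.78), but none was called lower. Stromal genes moved at the same step, though not all alike. The 5 fibroblast and smooth muscle markers were COL1A1, COL3A1, LUM, PDGFRB and ACTA2. Their summed FPKM was 1061 at D10, 3189 at D15 and 1373 in CM. COL3A1 was the largest part, with 529, 2037 and 609. Among these stages COL1A1, LUM and PDGFRB were also highest at D15, but ACTA2 was at 232, 262 and 509, highest in CM. The part of these cells in the D15 values was not tested. In CM, 9 of 12 mitotic kinesins lay above D15 on the deposited scale and 5 after rescaling. Set against D1, all 12 were called lower in CM, with a median of -1.78, against 18.1% of all genes.

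From the spindle partner list, 22 of 24 genes were lower in CM than in hESC and none was higher. Of all genes, 16.9% were lower and 18.7% higher. AURKB, the kinase of the chromosomal passenger complex, went from 107 to 11.2 FPKM, and CDK1, the kinase that starts mitosis, from 172 to 22.0. ANLN, a contractile ring protein, went from 37.0 to 26.2 and MKI67, the Ki-67 gene, from 13.9 to 16.7, and neither passed 2-fold. RNA of mitotic kinesins remained measurable in CM, at 2.98 FPKM for KIF15 up to 17.6 for KIF23. The fibroblast and smooth muscle markers summed to 1373 FPKM in the same column. The part of cells other than cardiomyocytes in the CM values was not tested.

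The likeness of each kinesin to KIF11 was described by the Pearson correlation r of log2(FPKM + 1) over the 11 time points. These points are 1 value each and share the libraries and scale of each column. For the other 11 mitotic kinesins r lay between 0.71 and 0.91 with a median of 0.87, and 9 had an r of at least 0.8. None of 13 transport kinesins did (range -0.62 to 0.54, median -0.14). KIF20B (r = 0.91, Spearman's rho 0.90), KIF14 (0.91, 0.82) and KIF18B (0.90, 0.81) were most like KIF11. KIF2C (0.71) was least like it among the mitotic kinesins. Without D15 and D2, the time points farthest from the KIF11 median, the range of r for mitotic kinesins was 0.53 to 0.88, and 4 had an r of at least 0.8.

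Outside the mitotic list, KIF7 and KIF9 had an r of 0.80 each, KIF24 of 0.79 and KIF2A of 0.78. KIF7, which organises the tip of the cilium in Hedgehog signalling, measured 4.39, 7.84, 7.36, 7.56, 6.36, 9.70, 7.84, 7.71, 8.60, 3.08 and 4.99 FPKM. KIF9, a motor of motile cilia, peaked at 10.5 at D1 and was lowest at 2.64 at D15. After rescaling, neither reached 0.8. KIF7 shares exon sequence with TICRR and KIF9 with KIF9-AS1 and KLHL18 on the opposite strand. KIF2A, a relative of KIF2C that also shortens microtubules, was high at every stage, from 15.1 at D15 to 59.4 at D1. Within the KIF2A and KIF2C sum, KIF2C held 59.3% in hESC and 24.6% in CM.

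The summed FPKM of the mitotic kinesins was 337 in hESC, 424 at D2, 202 at D4, 410 at D6, 193 at D10, 87.4 at D15 and 106 in CM. For the transport kinesins it was 368 in hESC, 226 at D2, 193 at D4, 176 at D6, 197 at D10, 153 at D15 and 269 in CM. The ratio of mitotic to transport kinesins was 0.915 in hESC, 2.33 at D6, its maximum, and 0.396 in CM. This ratio is taken within a column and does not depend on the scale of that column. Thus the mitotic sum had 2 maxima with a dip between them. Of the transport sum, KIF1A alone gave 137 of 368 FPKM in hESC and 35.9 of 269 in CM. The hESC values of the transport sum and of the ratio therefore rest in large part on this gene. With KIF1A included, the transport sum had its maximum in hESC. Its lowest value was at D15 on the deposited scale (153) and at D6 after rescaling (169, against 199 at D15).

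**Figure D2:**
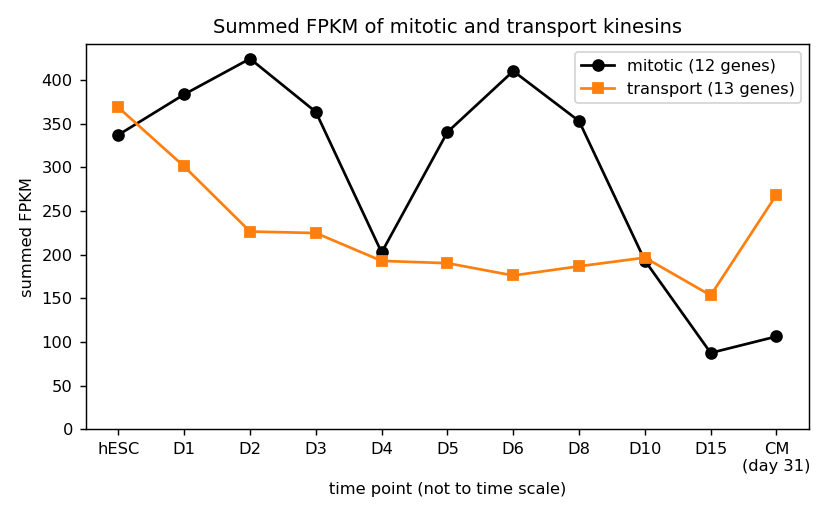
Summed FPKM (linear axis from 0) of the 12 mitotic and the 13 transport kinesins at the 11 time points, 1 deposited value per gene and point. The mitotic sum exceeds the transport sum from D1 to D8, both are close at D4 and D10, and the transport sum is the higher in CM (269 against 106).

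Among transport kinesins KIF1A, a kinesin-3 motor that carries precursors of synaptic vesicles in neurons, had the largest range. It measured 137, 94.2, 30.6, 24.3, 15.1, 10.5, 4.25, 3.46, 4.85, 10.1 and 35.9 FPKM from hESC to CM. Its level went down at every step to D8, by 39.5-fold in all, and stood 10.4-fold higher again in CM than at D8. Between D15 and CM the log2 change was 1.73. KIF1A in hESC was the highest value of any kinesin in the time course. Markers of neural cells stand beside it as follows: of 5 listed, SOX1 was at 0.0938 FPKM in hESC and 0.0570 in CM, PAX6 at 0.987 and 6.07, MAP2 at 2.93 and 7.82, and STMN2 at 4.86 and 2.45. Between these ends, MAP2 and STMN2 were highest at D3, at 13.1 and 85.9 FPKM. SOX1 was highest at D15 (0.241) and PAX6 in CM. TUBB3 was listed between 0 and 207 with no order over time. The part of neural cells in the KIF1A values was not tested.

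The relatives of KIF1A varied little. KIF1B, a carrier of mitochondria and vesicles, ranged from 18.7 at D6 to 41.8 in CM, and KIF1C, a carrier of Golgi and adhesion cargo, from 17.7 at D15 to 44.3 at D1. After rescaling, KIF1C was lowest at D4 (19.8), with 22.9 at D15. KIF1A accordingly held 69.4% of the FPKM of these 3 genes in hESC, 6.76% at D8 and 32.0% in CM.

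Within kinesin-1, the motor of many cargoes including mitochondria, the mix of heavy chains shifted to KIF5B. KIF5C, a heavy chain best known from neurons, measured 36.5, 29.5, 29.5, 36.9, 19.9, 21.6, 14.1, 11.4, 7.39, 5.33 and 3.65 FPKM, 10.0-fold lower in CM than in hESC. KIF5A, the other heavy chain known from neurons, was low: 4.79, 1.10, 1.36, 0.843, 2.94, 0.852, 0.428, 0.438, 0.291, 1.09 and 1.52 FPKM. KIF5B, the chain found in most tissues, stayed between 29.3 at D15 and 66.4 in hESC and was at 52.3 in CM. The share of KIF5B in the kinesin-1 sum was therefore 61.6% in hESC and 91.0% in CM, and that of KIF5C 33.9% and 6.35%. KLC1, the gene of a light chain that binds cargo to these motors, was at 53.8 FPKM in hESC and 70.4 in CM.

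Kinesin-2 drives transport into cilia as a complex of KIF3A, KIF3B and the adaptor KIFAP3, while KIF3C can replace KIF3B. KIF3B went from 4.41 FPKM in hESC to 12.2 at D1 and was 13.7 in CM. KIF3C went the other way, with 18.9, 17.6, 15.4, 7.53, 13.7, 9.16, 8.78, 8.33, 8.34, 6.55 and 4.63 FPKM. KIF3A was lowest in hESC (5.48) and highest at D4 (15.9). KIF3C thus held 65.7% of the sum of the 3 motors in hESC and 16.0% in CM, and KIF3B 15.3% and 47.4%. KIFAP3 measured 4.66, 4.30, 5.26, 16.8, 40.9, 19.2, 27.5, 31.9, 29.1, 32.9 and 44.5 FPKM, so it was high from D3 on. KIF17, a kinesin-2 motor that works as a pair of identical chains, measured 5.40, 0.674, 0.897, 0.530, 1.04, 0.901, 0.583, 0.664, 1.37, 1.16 and 0.566 FPKM, and only hESC was above 2.

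**Figure D3:**
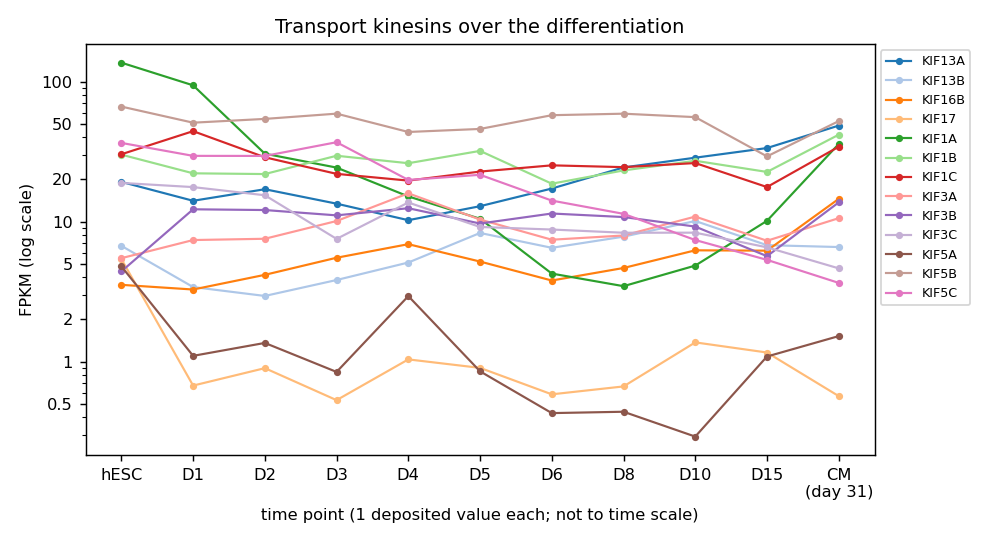
FPKM (log axis) of the 13 transport kinesins at the 11 time points, 1 line per gene and 1 deposited value per point. KIF1A goes from 137 in hESC to 3.46 at D8 and back to 35.9 in CM, KIF13A climbs from 10.2 at D4 to 48.5 in CM, and KIF5B stays within 29.3 to 66.4.

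The transport kinesins called higher in CM than in hESC were KIF13A, KIF16B and KIF3B. These are 3 of 13, near the 18.7% of all genes, and are named as a description. With D10 in place of CM the count was 0. KIF3B was not called higher in CM than at D1 (log2 change 0.15). KIF13A, which moves recycling endosomes, measured 19.2, 14.1, 17.0, 13.4, 10.2, 12.9, 17.2, 24.4, 28.6, 33.6 and 48.5 FPKM, with each stage after D4 above the one before. KIF16B, a motor of early endosomes, measured 3.53, 3.27, 4.17, 5.52, 6.90, 5.18, 3.79, 4.66, 6.24, 6.20 and 14.5 FPKM, with the highest value in CM and the next highest at D4. After rescaling, the next highest value of KIF16B was at D15 (8.03), above D4 (6.96). KIF13B, a carrier of membrane scaffold proteins and the closest relative of KIF13A, measured 6.71, 3.41, 2.94, 3.83, 5.10, 8.30, 6.50, 7.81, 10.1, 6.79 and 6.58 FPKM and ended where it began. From D15 to CM, 3 transport kinesins were called higher (KIF1A, KIF3B and KIF16B), against 7.23% of all genes. After rescaling 1 of them was.

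Over the 21 partners of transport motors, 5 were higher in CM than in hESC and 2 lower, with a median of -0.12. Against the 18.7% higher and 16.9% lower of all genes, these counts were near the background or under it, and the genes are named as a description. Those higher were KIFAP3, TRAK2, MAPK8IP3, DYNC1I1 and KIAA1279. TRAK2, which ties mitochondria to motors, went from 1.99 to 14.8 FPKM. The lower ones were MAPK8IP1, a scaffold on kinesin-1, from 13.8 to 3.40, and BICD1, a dynein adaptor, from 109 to 14.0. KIAA1279, the gene of the kinesin-binding protein that keeps several kinesins off microtubules, measured 6.59, 27.9, 24.3, 9.09, 12.9, 12.1, 18.0, 16.1, 14.0, 6.51 and 15.4 FPKM. It thus had low values at hESC and D3 and high ones at D1 and D2, as KIF11 did.

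**Figure D4:**
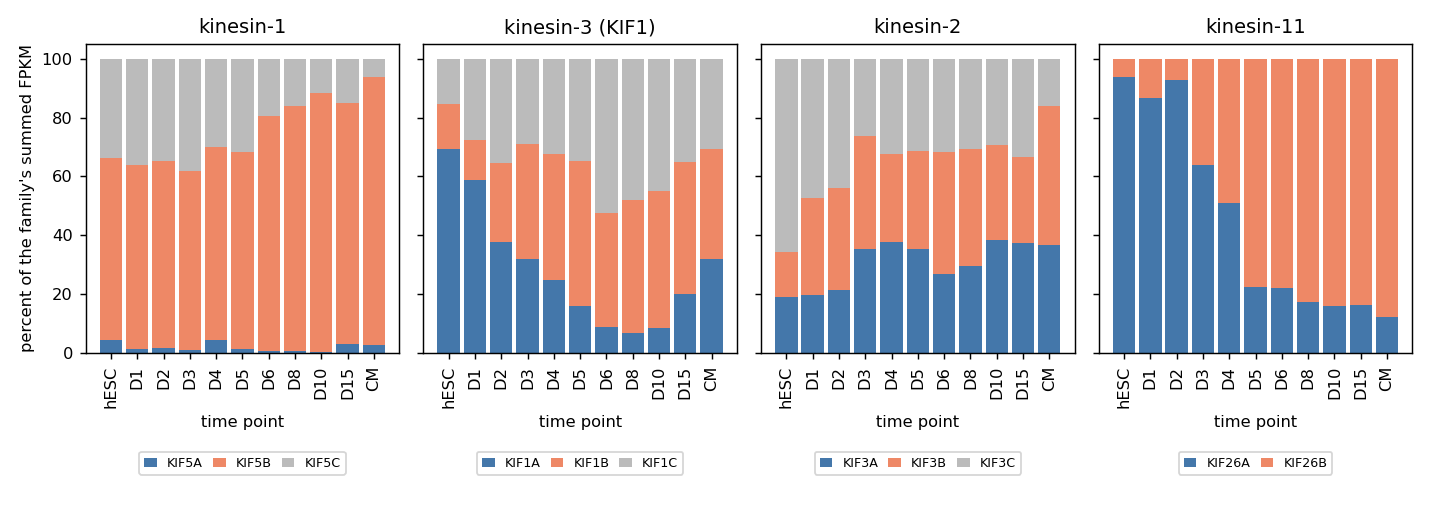
Share of each gene in the summed FPKM of its family (percent, stacked to 100) at the 11 time points, for kinesin-1, the KIF1 genes of kinesin-3, kinesin-2 motors and kinesin-11. KIF5B and KIF26B take 91.0% and 87.9% of their families in CM, and KIF1A shrinks to 6.76% at D8.

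Of all kinesins KIF26B had the largest change. KIF26B and KIF26A form kinesin-11, bind microtubules without working as ordinary motors, and KIF26B is known as a protein regulated by WNT5A and its ROR receptors. KIF26B measured 0.316, 1.37, 1.41, 6.97, 11.0, 27.0, 25.8, 33.9, 42.8, 44.6 and 73.6 FPKM from hESC to CM, a ratio of 233. The steps called higher were D2 to D3 (log2 change 1.72) and D4 to D5 (1.22), at which 3.1% and 3.68% of all genes were higher. KIF26A measured 4.90, 8.97, 17.7, 12.4, 11.4, 7.79, 7.36, 7.05, 8.10, 8.78 and 10.1 FPKM, with its maximum at D2. KIF26B thus held 6.06% of the pair's sum in hESC, 49.1% at D4 and 87.9% in CM. ROR2 itself was at 1.66 FPKM in hESC, 32.9 at D2 and 18.9 in CM.

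KIF21A and KIF21B, which slow the growth of microtubules, differed from each other. KIF21A measured 9.37, 13.8, 11.3, 10.0, 8.05, 12.5, 13.3, 13.1, 17.9, 17.4 and 21.8 FPKM and was called higher in CM than in hESC. KIF21B measured 6.66, 6.23, 4.88, 4.88, 1.78, 3.00, 2.64, 3.56, 3.81, 3.06 and 3.95 FPKM and was lowest at D4. KIF27, a relative of KIF7, ranged from 6.14 at D2 to 15.3 at D4.

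KIFC2 and KIFC3 belong to the motors that move towards minus ends, KIFC3 being known from adherens junctions. KIFC2 measured 20.9, 14.9, 10.9, 17.6, 20.3, 16.1, 8.65, 14.0, 12.6, 22.2 and 14.97 FPKM, and its exons overlap 791 bases of FOXH1 on the opposite strand. KIFC3 measured 4.67, 9.95, 10.1, 6.54, 5.50, 8.38, 6.35, 7.85, 9.30, 10.7 and 9.69 FPKM. Neither was called between hESC and CM, where the plain FPKM ratio of KIFC3 was 2.08 and its change in log2(FPKM + 1) was 0.92.

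The remaining kinesins were low. KIF12, known from epithelia of kidney and liver, measured 2.32, 0.465, 0.648, 0.783, 2.27, 1.05, 0.944, 0.945, 0.875, 1.26 and 0.536 FPKM and was called lower in CM than in hESC. KIF19, which sets the length of cilia, measured 1.18, 0.205, 0.690, 0.417, 0.722, 0.562, 0.353, 0.460, 0.477, 0.859 and 0.0983 FPKM. KIF6 ranged from 0.834 to 2.34. KIF25, a motor that acts on centrosomes, was listed at 0.474, 0, 0.372, 0.299, 0.344, 0.573, 0.258, 0.221, 0.290, 1.17 and 0.213 FPKM, with the 0 at D1. KIF19 and KIF25 passed the filter through 1 column each.

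The sorts compared cells by their surface receptors within a day, and here the authors' deposited tables give a test. Both tables hold called genes only (q-value under 0.05), so a kinesin that is not listed cannot be read as equal. Nothing in the labels ties the 2 libraries of a population to separate cultures, and the spread behind these p-values may therefore be technical. Normalization was done separately from the time course.

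At D3, the authors' deposited table holds 10 of the 42 kinesins, 6 higher and 4 lower in ROR2+ cells. The table holds 4648 genes, which is 27.9% to 29% of the genes the authors tested, a number worked out from how their q-values relate to their p-values, so the count of kinesins was not above the background. Of its genes 55.2% were higher in ROR2+ cells. KIF26B led in the authors' deposited table, with 0.808 FPKM in ROR2(-) and 19.6 in ROR2+ cells, a ratio of 24.3 (q = 0.00037). In hg19, the locus of KIF26B in that table is chr1:245318287-245872733. ROR2, the gene sorted on, had a ratio of 12.2 in the authors' deposited table.

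Also higher in ROR2+ cells in the authors' deposited table were KIFC3 (5.10 against 11.3 FPKM, ratio 2.22), KIF26A (10.1 against 20.7, 2.05), KIFC2 (14.4 against 29.2, 2.03) and KIF7 (7.52 against 11.4, 1.52). KIF11 was the only mitotic kinesin in the authors' deposited table for D3, with 17.6 FPKM in ROR2(-) and 24.0 in ROR2+ cells, a ratio of 1.36 (q = 0.0013, at chr10:94353043-94415150 in hg19). From the spindle partner list, 6 of 24 genes were called in the authors' deposited table, 4 higher and 2 lower in ROR2+ cells. Of all genes tested, 27.9% to 29% were called.

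The kinesins lower in ROR2+ cells at D3 in the authors' deposited table were KIF1A (42.4 FPKM in ROR2(-) and 7.12 in ROR2+ cells), KIF5A (1.67 and 0.777), KIF21B (2.93 and 1.77) and KIF13B (5.62 and 3.69). These are 3 transport kinesins and 1 of the others. Genes of undifferentiated cells moved the same way in the authors' deposited table: POU5F1 was at 449 FPKM in ROR2(-) and 87.3 in ROR2+ cells, and DPPA4 at 155 and 65.8. The neural gene MAP2 was at 9.18 and 1.61 in the authors' deposited table. The part of undifferentiated or neural cells in the KIF1A difference was not tested.

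At D4, the authors' deposited table holds 18 of the 42 kinesins, 10 higher and 8 lower in ROR2+/PDGFRa+ cells. Its 4825 genes are 36.3% to 41.8% of those tested, so the number of kinesins called was near the background. By direction, 47.5% of the genes in the table were higher in the positive cells. All 6 mitotic kinesins in the authors' deposited table were higher in them, by small ratios: KIF14 by 1.57 (6.51 against 10.2 FPKM), KIFC1 by 1.43 (17.5 against 25.1), KIF18A by 1.42 (15.3 against 21.8), KIF20B by 1.39 (12.7 against 17.7), KIF23 by 1.36 (25.1 against 34.2) and KIF11 by 1.28 (17.8 against 22.8). Of these, KIF18A had the highest q-value (0.048) and KIF14 the lowest (0.00027). All 15 spindle partners called in the authors' deposited table were higher too, by 1.27 to 1.75. Of the 6 mitotic kinesins, only KIF14 passed 1.5-fold.

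KIF26B again had the highest ratio among kinesins in the authors' deposited table for D4, 10.3 (2.06 against 21.2 FPKM, q = 0.00027). KIFC3 (7.72 against 12.5, ratio 1.62), KIF26A (14.1 against 19.8, 1.40) and KIF5C (23.9 against 31.1, 1.30) were higher in the positive cells as well in the authors' deposited table. For KIF26B, KIF26A, KIFC3 and KIF11 both sorts gave a higher value in the positive cells. Whether the ratios differ between D3 and D4 was not tested.

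Lower in the positive cells at D4 in the authors' deposited table were 4 transport kinesins: KIF1A (17.3 FPKM in the negative and 1.78 in the positive cells, 9.69-fold lower), KIF16B (9.06 and 5.12), KIF13B (8.11 and 4.75) and KIF3C (14.0 and 10.0). KIF12 (13.6 and 2.82), KIF19 (1.25 and 0.619), KIF21A (15.2 and 11.0) and KIF21B (2.07 and 1.60) were lower as well in the authors' deposited table. Endoderm and epithelial genes, a list added after the data were seen, moved with KIF12 in the authors' deposited table: SOX17 was at 10.1 FPKM in the negative and 2.30 in the positive cells, FOXA2 at 23.0 and 3.16, FOXA1 at 19.2 and 3.74, EPCAM at 134 and 19.6, and CDH1 at 41.9 and 3.90. All 5 genes of that list were lower in the positive cells. Pluripotent genes were lower in the positive cells as well in the authors' deposited table, POU5F1 at 63.3 and 9.30 FPKM and TDGF1 at 29.6 and 8.25. Neural genes were too in the authors' deposited table, STMN2 at 14.2 and 4.10, MAP2 at 2.77 and 0.667 and TUBB3 at 60.2 and 28.9. The part of any of these cells in the KIF12 and KIF1A differences was not tested. KIF12 in unsorted D4 cells was at 2.27 FPKM, below both sorted populations, on a scale normalized apart.

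**Figure D5:**
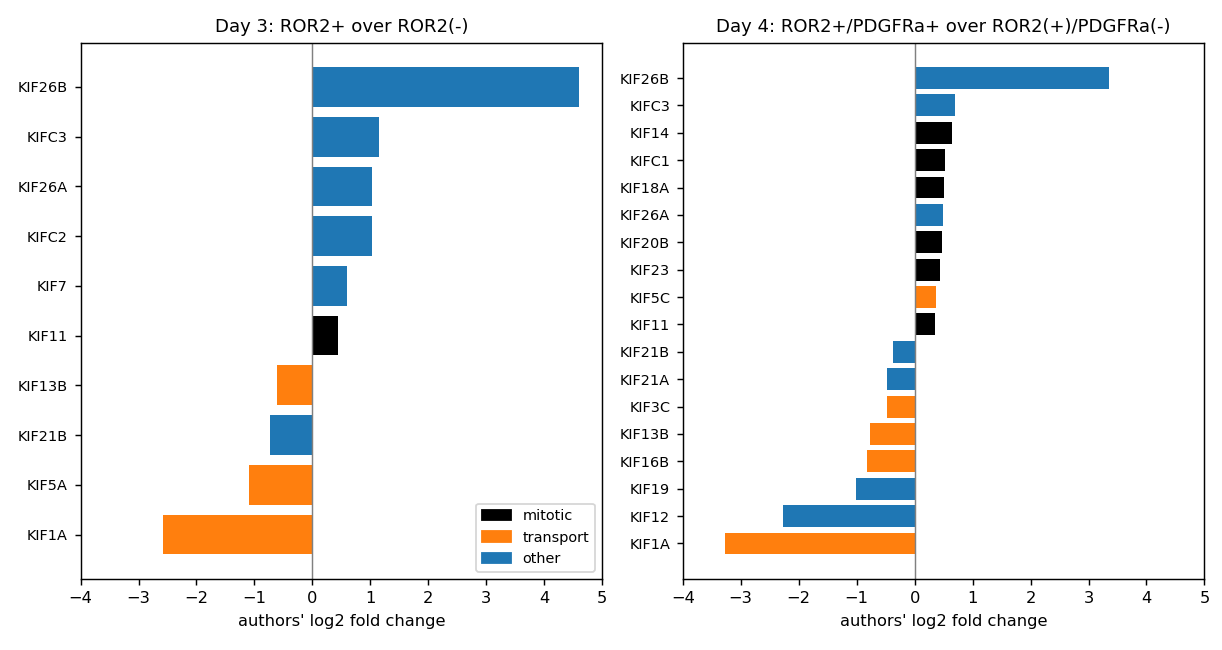
The authors' log2 fold change, positive over negative population, of the kinesins in each deposited sort table (10 at D3, left; 18 at D4, right), with bars coloured by role. KIF26B has the longest bar to the right and KIF1A the longest to the left in both sorts, and the bars of all mitotic kinesins listed lie right of 0.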

How the data were processed

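RNA of 30 libraries was sequenced as pairs of 100 nt after removal of ribosomal RNA. Reads were processed with TopHat2 2.0.8b, Bowtie2 2.1.0.0 and Cufflinks on hg19, per the submitters' processing notes; how the 2 libraries of a group were combined is not given in the sources used here, nor are the annotation and strand setting. The authors deposited FPKM values, 1 per gene and group; the time-course header names no unit, which was taken from these notes and the values. Per the file headers, the sort tables hold the authors' FPKM, log2 fold change, test statistic (a score), linear ratio, p-value and q-value. Entries whose name occurs more than once were left out. Genes with at least 1 FPKM at any time point were kept (21711 of 41491), and log2(FPKM + 1) was compared with python 3.11.15, pandas 2.3.3 and numpy 2.4.6. The counting was tested on simulated data. Alternatives were a pseudocount of 0.1, no filter or one of 5 FPKM, a 1.5-fold limit, columns rescaled to a common median of ratios over 12146 genes, other end points and a q-value under 0.01. Exon overlaps came from GENCODE 29 by gene name (42 of 42 matched), which belongs to another build. Every kinesin reaching 10 FPKM is given values, and values at every time point are given for KIF11, for the mitotic pair and the 4 other kinesins with the largest change from hESC to CM, for a value that jumps and for kinesins in a sort table; KIF15, KIF13A, KIFAP3 and KIAA1279 were added after their values were seen. The members, the lists and these rules were chosen with earlier results of these data known.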

Additional observations from a re-analysis of the deposited data

How the results depend on the processing

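No paired analysis was possible because the deposited columns hold 1 value per group and carry no replicate number; leaving out each replicate was not run for the same reason. Recomputed under alternatives, 73 counts stayed within 1.5 times the reported count and 31 did not. The cause of these shifts was not tested, except where fewer genes or another limit set the count. At 1.5-fold, mitotic kinesins numbered 5 higher at D1, 10 lower at D4, 7 higher at D5 and 10 lower at D10; 6 transport kinesins were higher in CM than at D15, and of the other kinesins 5 were higher and 4 lower in CM than in hESC. With a pseudocount of 0.1, 5 mitotic kinesins were higher at D5 and of the other kinesins 5 were higher and 2 lower in CM than in hESC. With a filter of 5 FPKM, 0 of the other kinesins were lower. After rescaling, 0 mitotic kinesins were lower at D15, 1 transport kinesin was higher in CM than at D15, and 0 other kinesins had an r of at least 0.8 with KIF11. With D1 in place of hESC, 3 transport kinesins were lower in CM, and of the others 1 was higher and 2 lower; 11 of 40 kinesins changed sign, among them KIF5A (0.26) and KIF12 (0.069) of the 20 called between hESC and CM. With D10 in place of CM, 2 mitotic kinesins and 0 of the others were lower and 0 transport kinesins higher, and 7 of 40 kinesins changed sign, among them KIF11 (0.25) and, of those called, KIF15 (0.12). Alternatives chosen after seeing the data were D10 against D1 (5 mitotic, 2 transport and 0 others lower; 1 transport and 1 other higher; after rescaling as well, 0 mitotic lower and 2 transport higher), D5 in place of D4 (0 mitotic lower than D3) and the promoter window with 50 bases after the start (10 mitotic with TTTGAA). In the D4 sort, a q-value under 0.01 left 6 kinesins higher and 5 lower, and 1.5-fold with 1 FPKM left 3 and 5. Depth is unknown, and values near 1 FPKM carry little weight.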
